A study of Mus musculus with 4 samples.

Results

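Lipid droplet and fat storage genes were examined in whole liver of OGT-floxed mice by bulk mRNA-seq. The set held 10 genes, taken from the deposited table by gene name, and 9 of the 10 were listed among its 13903 genes: Plin2, Plin3, Plin4, Plin5, Cideb, Cidec, Pnpla2, G0s2 and Cd36. Mogat1 was not listed and was not analysed here. All mice were OGT-floxed on the C57BL/6J background and all were fed the CDE diet, which is deficient in choline and supplemented with ethionine. No library therefore came from mice that had not been fed this diet. OGT is O-GlcNAc transferase, the enzyme that attaches N-acetylglucosamine to serine and threonine of nuclear and cytosolic proteins. Mice labelled OGT-KO carried AAV8-TBG-CRE and mice labelled control carried AAV8-TBG-eGFP. The TBG promoter is active in hepatocytes, so the deletion was directed to these cells and the other cells of the liver kept the floxed gene. Livers were collected at the end of the diet, without recovery, or once 7 days of recovery had passed. RNA of 3 mice was pooled into a library for each of the 4 conditions, and neither age nor sex was given in the labels. A condition was therefore measured once, and no difference given here has a replicate error, a test or a p-value.

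Neutral fat is stored in the liver as triglyceride in lipid droplets, organelles with a core of neutral lipid under a single layer of phospholipid and a coat of proteins. Perilipins coat the droplet and limit the access of lipases, CIDE proteins bring droplets together so that lipid passes from the smaller to the larger, and the lipase ATGL starts the breakdown of the stored triglyceride. In hepatocytes, storage is balanced against secretion of triglyceride in lipoproteins and against oxidation of fatty acids, and a lack of choline is a known cause of fat accumulation in the liver.

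Values are CPM, the number of reads of a gene per 1000000 reads of its library on the listed genes. The whole reads behind them were recovered, 19972699 to 22866431 per library, and each level is given with its 95% exact Clopper-Pearson interval, which covers counting error only and not the spread between mice. At this depth 3 reads correspond to 0.131 to 0.150 CPM. Differences are of log2(CPM + 1), which makes the changes of weakly expressed genes look smaller. A gene was compared where its mean over the 4 libraries reached 10 CPM, as for 8963 genes and 8 of the 9 listed members, and it was called higher or lower at a 2-fold difference. Fewer cells of a type and less RNA per cell cannot be told apart in bulk RNA. Ogt, the targeted gene, had 64.7 CPM in the control library with no recovery, 55.3 in the OGT-KO library with no recovery, 55.7 in the control library at 7 days and 77.7 in the OGT-KO library at 7 days. The level was thus higher in the OGT-KO library than in its control at 7 days (log2 difference 0.47), against the label, and the RNA of the whole gene in bulk liver does not show whether the floxed part was removed.

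Between OGT-KO and control with no recovery, 3 of the 8 compared members were called higher (Cidec, Cd36 and Plin3) and 0 were called lower. Plin3 was called under 1 of 5 alternative scalings and pseudocounts. Cidec passed the filter through the OGT-KO libraries alone, so it had to be higher there to be compared. Its calls between labels, at either time, therefore support nothing. Over all compared genes 24.4% were called higher and 5.69% lower. After 7 days, Cidec, Cd36 and Plin3 were again the 3 members called higher and 0 were called lower, where 22.9% of all compared genes were called higher and 4.27% lower. From no recovery to 7 days, 0 members were called in the control libraries, where 0.245% of genes were called higher and 0.96% lower. In the OGT-KO libraries 0 members were called higher and 1, Cidec, was called lower, where 1.04% of genes were called higher and 0.435% lower. The median log2 difference of the 8 members was 0.61 with no recovery and 0.30 at 7 days, beside 0.51 and 0.48 for all compared genes, and at each time 4 of the 8 members lay above the median of all compared genes. The members went in both directions: 5 of the 8 differences lay above 0 with no recovery and 4 of the 8 at 7 days. The 4 comparisons share libraries and are not independent of each other.

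**Figure D1:**
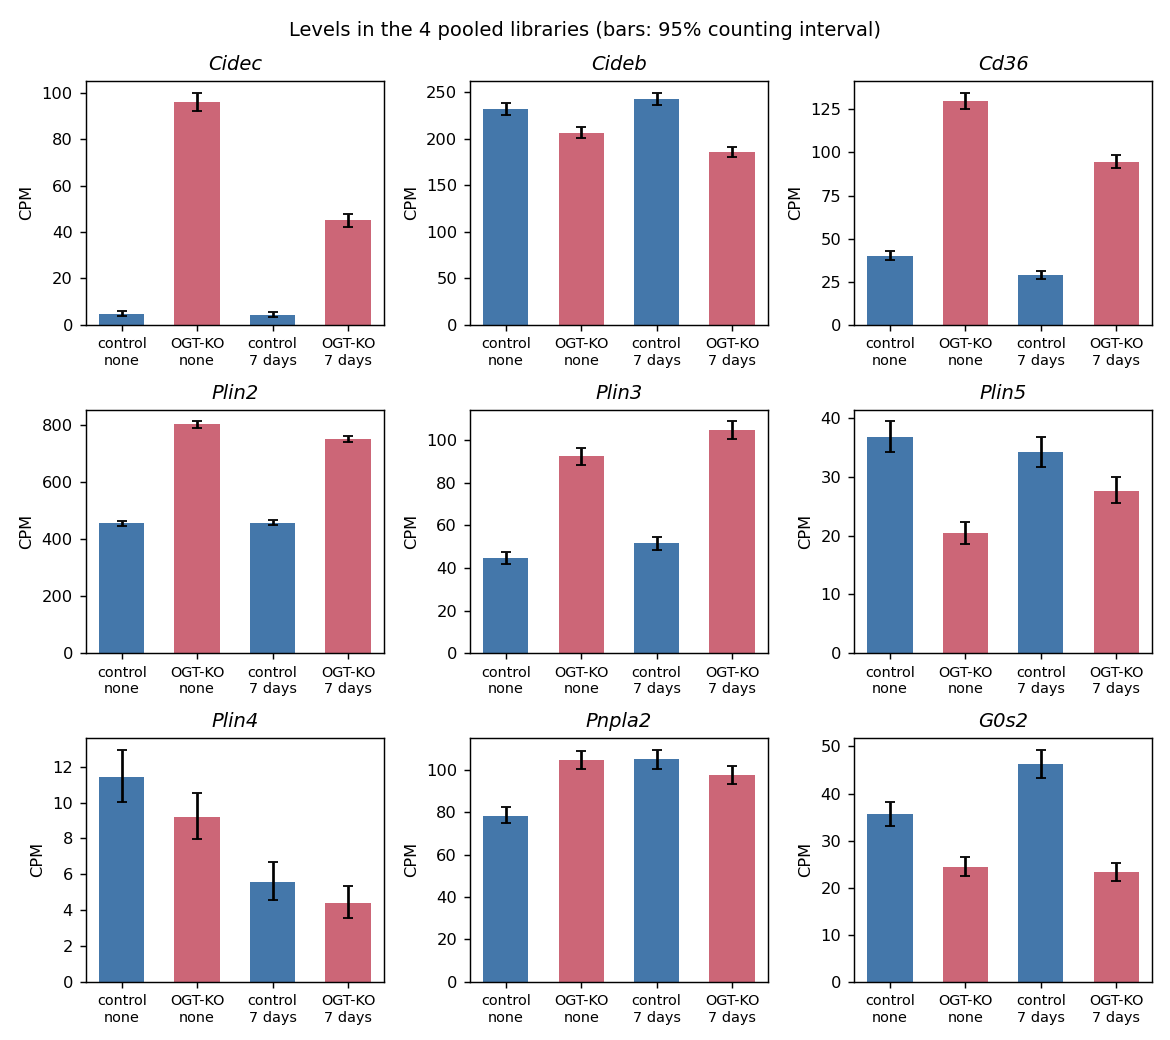
Level of each listed member in the 4 libraries, in CPM on a linear axis from 0 (blue, control; red, OGT-KO; none, no recovery). Bars are the level of 1 pooled library and error bars the 95% counting interval; Cidec stood at 4.80 and 4.31 CPM in the control libraries and at 96.0 and 45.1 CPM in the OGT-KO libraries.

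Plin2, the perilipin that coats most hepatocyte droplets and whose protein is stabilised by lipid, had 455 CPM (446 to 464, 9676 reads) in the control library and 801 CPM (789 to 813) in the OGT-KO library with no recovery. At 7 days it had 457 CPM (448 to 467) and 751 CPM (739 to 762). The control libraries lay within each other's counting interval, and both OGT-KO libraries lay above both controls. The ratio of OGT-KO to control was 1.76 (1.72 to 1.80) with no recovery and 1.64 (1.60 to 1.68) at 7 days, log2 differences of 0.81 and 0.71 that did not reach the 2-fold call. Of the compared genes, 32.7% and 34.9% had a difference at least as high, and less the median of all compared genes the differences of Plin2 were 0.31 and 0.24.

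The sequence around the start of Plin2 is shown because it was the only member window with an E-box, and it is the start of the most abundant perilipin in these libraries. All promoter sequences here are RefSeq's on GRCm38.p6, a different build from the GRCm39 that the submitters' processing notes name, and run from 230 bases before the transcription start to 20 after it. Capitals mark the letters AGGTCA, read on either strand (TGACCT on the other), and CACGTG. Plin2 lies on the minus strand of chromosome 4, and the window is chr4:86670040-86670289.
Plin2: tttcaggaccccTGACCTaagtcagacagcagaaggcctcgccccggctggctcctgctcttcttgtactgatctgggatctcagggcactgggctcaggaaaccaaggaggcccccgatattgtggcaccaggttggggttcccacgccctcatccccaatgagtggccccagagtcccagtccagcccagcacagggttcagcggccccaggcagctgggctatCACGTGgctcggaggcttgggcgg
The first base of TGACCT lies at position -218 and that of CACGTG at -4, counted from the start with -1 as the last base before it. AGGTCA is the core that many nuclear receptors bind, and CACGTG is an E-box, the core bound by several basic helix-loop-helix factors. Both are short and common: among 32851 RefSeq windows of 300 bases, 16.3% held AGGTCA and 7.15% held CACGTG on either strand. Of the 12 windows of the 10 members, 4 held AGGTCA (1 of Plin2, both of Plin5 and the 1 of Cd36), 1 held CACGTG, and 0 held AGGTCA repeated in the same direction with 1 base between or CAAAGTCCA, a site of the HNF4A type, which 0.0396% and 0.475% of all windows held. The matches describe letters in these windows and nothing about binding in these livers.

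Plin3, a perilipin found in the cytosol and on small, newly formed droplets, had 44.7 CPM (41.9 to 47.7) in the control and 92.4 CPM (88.5 to 96.4) in the OGT-KO library with no recovery. At 7 days it had 51.6 CPM (48.5 to 54.8) in the control and 105 CPM (101 to 109) in the OGT-KO library. The OGT-KO libraries did not overlap with the controls, and the ratio was 2.07 (1.91 to 2.23) with no recovery and 2.03 (1.89 to 2.19) at 7 days. These differences of 1.03 and 1.01 on the log2 scale lay close to the 2-fold call, which was kept under 1 of 5 alternatives at each time, with values down to 0.32 and 0.33, and 23.3% and 22.6% of compared genes had a difference at least as high. Less the median of all compared genes, they were 0.52 and 0.53.

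Plin5, the perilipin that ties droplets to mitochondria in cells that burn fat, lay in the other direction. It had 36.8 CPM (34.3 to 39.5) in the control and 20.4 CPM (18.6 to 22.4) in the OGT-KO library with no recovery. At 7 days the values were 34.1 CPM (31.6 to 36.8) and 27.7 CPM (25.5 to 29.9). Both OGT-KO libraries lay below both controls, and the counting intervals did not overlap at either time. Plin5 was 1.80-fold lower with no recovery (1.60 to 2.02) and 1.23-fold lower at 7 days (1.11 to 1.38), log2 differences of -0.82 and -0.29 that were not called. Only 7.19% of compared genes lay below it with no recovery and 12.6% at 7 days, and less the median its differences were -1.33 and -0.77. The difference was smaller after recovery, by 0.52 on the log2 scale. That came mainly from the OGT-KO library, in which Plin5 was 1.35 times its level with no recovery (1.199 to 1.53).

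Plin4, a perilipin best known from adipocytes and muscle, had the lowest level of the 9 listed members per kilobase of exon in every library, from 0.759 to 1.98 CPM per kilobase. Its mean of 7.64 CPM lay below the minimum, so it was not compared. The values were 11.4 CPM (10.04 to 13.0) in the control and 9.18 CPM (7.98 to 10.5) in the OGT-KO library with no recovery, and 5.56 CPM (4.57 to 6.69) and 4.39 CPM (3.57 to 5.34) at 7 days. Here the libraries were ordered by recovery more than by label: both libraries with no recovery lay above both libraries at 7 days, with log2 differences of -0.92 in the controls and -0.92 in the OGT-KO libraries.

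Among the perilipins, levels were compared per kilobase of merged exons (GENCODE M21, GRCm38). Plin2 made up 80.5% of the summed CPM per kilobase of the 4 listed perilipins in the control library with no recovery, 86.4% in the OGT-KO library with no recovery, 80.8% in the control library at 7 days and 83.7% in the OGT-KO library at 7 days. Plin5 made up 10.9%, 3.71%, 10.2% and 5.19% in the same order. The share of Plin3 was 7.34%, 9.25%, 8.45% and 10.8%. Thus Plin5 was the second perilipin after Plin2 in the control libraries, and Plin3 took that place in the OGT-KO libraries.

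Cidec, the CIDE protein that drives the growth of large droplets in adipocytes and in fatty liver, had the widest range of the members. It had 4.80 CPM (3.91 to 5.82, 102 reads) in the control library with no recovery and 96.0 CPM (92.1 to 100.1, 2196 reads) in the OGT-KO library. At 7 days it had 4.31 CPM (3.44 to 5.32, 86 reads) in the control and 45.1 CPM (42.4 to 48.0, 1018 reads) in the OGT-KO library. The control libraries overlapped with each other, both OGT-KO libraries lay far above them, and the OGT-KO library at 7 days lay between the controls and the OGT-KO library with no recovery. The ratio was 20.01 (16.4 to 24.7) with no recovery and 10.5 (8.40 to 13.2) at 7 days, and the log2 differences were 4.06 and 3.12. Of all compared genes, 0.759% and 3.61% had a difference at least as high. Cidec passed the filter on the mean through the OGT-KO libraries alone, since both controls lay below 10 CPM, so that it had to differ among the genes compared. From no recovery to 7 days it was 2.13-fold lower (1.98 to 2.30) in the OGT-KO libraries, a log2 difference of -1.07, and only 0.324% of compared genes lay lower, whereas the log2 difference in the control libraries was -0.13. The difference between OGT-KO and control was thus smaller by 0.95 on the log2 scale after recovery (0.51 to 1.36 from the counting error of the ratio of ratios, 0.93).

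RefSeq gives Cidec a pair of transcription starts on the minus strand of chromosome 6, both shown because this gene had the largest difference of the members. The table holds 1 value for the whole gene, so the share of each start was not measured. The windows are chr6:113435741-113435990 and chr6:113434745-113434994, and neither held any of the 4 motifs.
Cidec, start 1: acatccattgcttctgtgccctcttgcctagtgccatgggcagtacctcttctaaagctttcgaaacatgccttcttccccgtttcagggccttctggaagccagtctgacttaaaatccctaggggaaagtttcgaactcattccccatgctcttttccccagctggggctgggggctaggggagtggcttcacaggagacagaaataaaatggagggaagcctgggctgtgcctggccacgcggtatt
Cidec, start 2: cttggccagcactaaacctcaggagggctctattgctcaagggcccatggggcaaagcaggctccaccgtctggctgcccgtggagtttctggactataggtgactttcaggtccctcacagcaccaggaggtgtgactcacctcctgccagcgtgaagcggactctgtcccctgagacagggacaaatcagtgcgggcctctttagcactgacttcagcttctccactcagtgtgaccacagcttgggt

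Cideb, the CIDE protein of hepatocytes, which acts in droplet fusion and in the lipidation of secreted lipoproteins, had 232 CPM (225 to 238) in the control and 206 CPM (200.5 to 212) in the OGT-KO library with no recovery. At 7 days the values were 243 CPM (236 to 249.6) and 186 CPM (180.1 to 191). Both OGT-KO libraries lay below both controls, 1.12-fold lower (1.08 to 1.17) with no recovery and 1.31-fold lower (1.25 to 1.36) at 7 days, and neither difference was called. However, 76.3% of the exon bases of Cideb, 1136 of 1488, are shared in GENCODE M21 with exons of Nop9, a gene on the opposite strand. Nop9 had 219 CPM, 214 CPM, 229 CPM and 189 CPM in the order control and OGT-KO with no recovery, control and OGT-KO at 7 days. Whether reads were counted by strand is not given in the sources used here, so reads of Cideb and Nop9 cannot be told apart and the values of Cideb are uncertain. Of the other listed members, only Plin4 shared exon bases with another gene, 17 bases with Hdgfl2.

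Within a library, Cidec had 0.0207 of the CPM of Cideb in the control and 0.465 in the OGT-KO library with no recovery, and 0.0177 and 0.243 at 7 days. This ratio does not depend on how libraries are scaled to each other. It was 22.5 times higher (18.4 to 27.5) in OGT-KO with no recovery and 13.7 times higher (10.9 to 17.1) at 7 days, with the same limit on Cideb.

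Pnpla2 encodes ATGL, the lipase that removes the first fatty acid from a stored triglyceride. It had 78.4 CPM (74.7 to 82.2) in the control and 104 CPM (100.2 to 109) in the OGT-KO library with no recovery. At 7 days it had 105 CPM (100.4 to 109) in the control and 97.4 CPM (93.3 to 102) in the OGT-KO library. The control library with no recovery was the low one, and the other 3 libraries lay between 97.4 and 105 CPM. The log2 difference was 0.41 with no recovery and -0.11 at 7 days, neither of them called, and less the median of all compared genes it was -0.10 and -0.58. With no recovery its direction depends on the scaling, and it is negative under upper-quartile scaling (-0.07) and median-ratio scaling (-0.30).

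G0s2, the protein that binds ATGL and inhibits it, had 35.6 CPM (33.1 to 38.2) in the control and 24.5 CPM (22.5 to 26.6) in the OGT-KO library with no recovery. At 7 days it had 46.3 CPM (43.3 to 49.3) in the control and 23.3 CPM (21.3 to 25.3) in the OGT-KO library. Both OGT-KO libraries lay below both controls. G0s2 was 1.45-fold lower (1.30 to 1.62) with no recovery and 1.99-fold lower (1.78 to 2.22) at 7 days, log2 differences of -0.52 and -0.96, the latter just short of the 2-fold call on this scale. Of all compared genes, 11.1% lay below it with no recovery and 4.44% at 7 days.

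The ratio of the inhibitor to the lipase was 0.454 (0.416 to 0.495) and 0.441 (0.408 to 0.477) in the control libraries and 0.235 (0.214 to 0.257) and 0.239 (0.217 to 0.263) in the OGT-KO libraries, with no recovery and at 7 days. It was 1.94-fold lower (1.71 to 2.20) in OGT-KO with no recovery and 1.85-fold lower (1.63 to 2.09) at 7 days. Although Pnpla2 and G0s2 each varied with recovery in the controls (log2 differences of 0.42 and 0.37), the counting intervals of their ratio overlapped between the times for each label. The values are RNA levels, and the activity of the lipase was not measured.

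**Figure D2:**
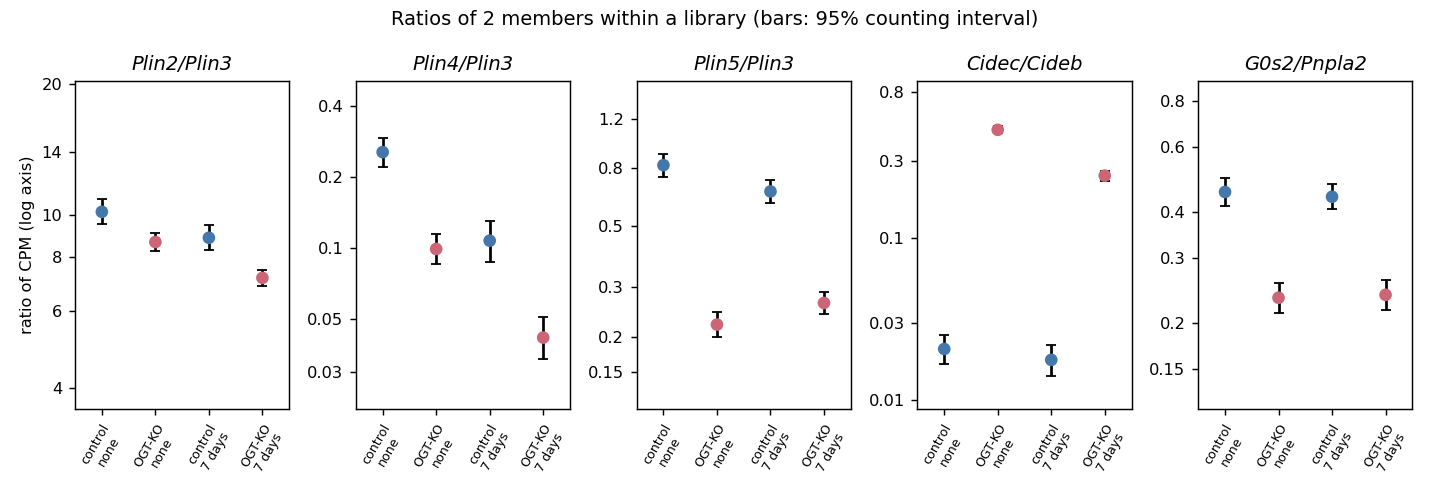
Ratio of the CPM of 2 members within each library, on a log axis with a separate scale in each panel (blue, control; red, OGT-KO; bars, 95% counting interval). G0s2/Pnpla2 stood at 0.454 and 0.441 in the control libraries and at 0.235 and 0.239 in the OGT-KO libraries, and reads of Cideb may include those of the overlapping Nop9.

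The other within-library ratios gave the order of change among the perilipins without any scaling between libraries. Plin5/Plin3 was 0.822 and 0.221 in control and OGT-KO with no recovery and 0.662 and 0.264 at 7 days, 3.72-fold (3.24 to 4.27) and 2.51-fold (2.20 to 2.86) lower in OGT-KO. Plin4/Plin3 was 2.57-fold lower at both times (2.11 to 3.14 and 1.94 to 3.41). Plin2/Plin3 moved least, from 10.2 to 8.67 with no recovery and from 8.87 to 7.17 at 7 days, 1.17-fold (1.08 to 1.27) and 1.24-fold (1.14 to 1.34) lower. These ratios are of CPM and are not corrected for gene length.

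Cd36, the scavenger receptor that takes up long-chain fatty acids and that is carried by macrophages and endothelial cells as well as by hepatocytes, had 40.0 CPM (37.3 to 42.8) in the control and 130 CPM (125 to 135) in the OGT-KO library with no recovery. At 7 days it had 29.0 CPM (26.7 to 31.5) in the control and 94.6 CPM (90.7 to 98.8) in the OGT-KO library. Both OGT-KO libraries lay above both controls, and for each label the library at 7 days lay below the library with no recovery. The ratio was 3.25 (3.01 to 3.51) with no recovery and 3.26 (2.98 to 3.59) at 7 days, with log2 differences of 1.68 and 1.67. Of all compared genes 10.6% and 11.3% had a difference at least as high, and less their median the differences of Cd36 were 1.17 and 1.195. Recovery gave a log2 difference of -0.45 for each label, and the difference of the differences was -0.002 (-0.17 to 0.18 from counting error).

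The RefSeq window of Cd36, on the minus strand of chromosome 5 at chr5:17835877-17836126, is shown because Cd36 was called higher at both times and its window held AGGTCA, in capitals on the other strand, with the first base at -228.
Cd36: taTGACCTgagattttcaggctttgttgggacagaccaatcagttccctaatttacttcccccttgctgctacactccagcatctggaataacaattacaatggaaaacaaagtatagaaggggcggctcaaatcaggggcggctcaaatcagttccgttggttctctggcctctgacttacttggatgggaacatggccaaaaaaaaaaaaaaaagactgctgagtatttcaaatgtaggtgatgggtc

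Per kilobase of exon, Cideb and Plin2 were the highest members in every library. In the control libraries Cideb led, with 156 and 163 CPM per kilobase with no recovery and at 7 days, followed by Plin2 with 130 at each time. In the OGT-KO libraries Plin2 led, with 228 and 214, and Cideb followed with 139 and 125. G0s2 was next in the controls, with 40.9 and 53.1 CPM per kilobase, and Pnpla2 after it with 25.95 and 34.7. In OGT-KO with no recovery, Cidec held the next place with 51.7 CPM per kilobase, above Cd36 with 36.2 and Pnpla2 with 34.6, which did not differ beyond counting error. At 7 days in OGT-KO, Pnpla2 had 32.2, Plin3 27.7, G0s2 26.7, Cd36 26.4 and Cidec 24.3 CPM per kilobase, so that these 5 members lay between 24.3 and 32.2. The order concerns reads per length of all annotated exons, and Cideb stands in it with the limit given above.

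Over recovery, Cidec in OGT-KO was the only compared member called, and Plin4, not compared, had a log2 difference of -0.92 for each label. In the control libraries the largest log2 differences from no recovery to 7 days among the 8 compared members were -0.45 for Cd36, 0.42 for Pnpla2 and 0.37 for G0s2. Only 2.81% and 3.86% of compared genes had a difference at least as high as those of Pnpla2 and G0s2, and 7.14% lay below Cd36. In the OGT-KO libraries they were -1.07 for Cidec, -0.45 for Cd36 and 0.42 for Plin5, with 4.91% of compared genes below Cd36 and 7.55% at least as high as Plin5. The standard deviation over all compared genes was 0.29 in the controls and 0.33 in OGT-KO. The median of the 8 members was 0.04 in the controls and -0.10 in OGT-KO, beside -0.05 and -0.03 for all compared genes. Between labels, the difference at 7 days less that with no recovery was -0.95 for Cidec, 0.52 for Plin5, -0.52 for Pnpla2, -0.44 for G0s2, -0.22 for Cideb, -0.10 for Plin2 and -0.02 for Plin3. Over all compared genes the middle 95% of this quantity ran from -0.65 to 0.95 with a median of 0.03. Of these 7 members only Cidec lay outside that range. Cidec passed the filter through the OGT-KO libraries alone, so its place outside the range supports nothing. None of these differences was tested.

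The scaling between libraries bears on each of these directions. At equal totals the median of all compared genes was itself 0.51 higher in OGT-KO with no recovery and 0.48 higher at 7 days. Under upper-quartile scaling that median was 0.04 and 0.01, and under median-ratio scaling it was -0.19 and -0.18. The difference of Cidec ran from 2.84 to 4.29 with no recovery and from 1.95 to 3.36 at 7 days over 3 scalings and a pair of other pseudocounts. That of Cd36 ran from 0.97 to 1.70 and from 1.002 to 1.70, that of Plin2 from 0.10 to 0.82 and from 0.03 to 0.71, and that of Plin3 from 0.32 to 1.04 and from 0.33 to 1.02. Plin5 and G0s2 went the other way and reached -1.51 and -1.22 with no recovery and -0.96 and -1.63 at 7 days. Under upper-quartile scaling and under equal totals without the 100 highest genes, 2 members were called higher and 1 lower at each time. Under median-ratio scaling 1 was called higher and 2 lower with no recovery, and 2 higher and 2 lower at 7 days. Cidec stayed above 2-fold under all 5 alternatives, with the limit that it passed the filter through the OGT-KO libraries alone. Between labels only Pnpla2 with no recovery took another direction among the 9 listed members. The 3 scalings all shift the differences between labels to lower values, so members lower in OGT-KO could not change direction under them.

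**Figure D3:**
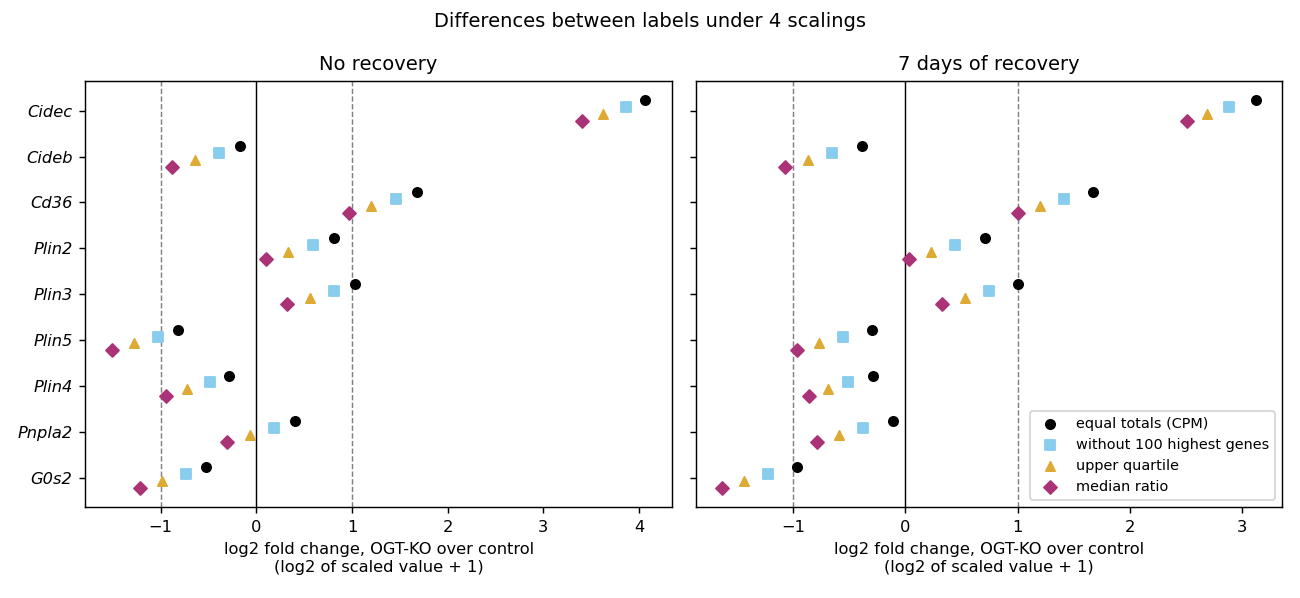
Log2 difference between OGT-KO and control of each listed member with no recovery (left) and at 7 days (right) under 4 scalings, of which equal totals (CPM) is the deposited one; dashed lines mark 2-fold. Points of a member shift together to lower values from equal totals to median ratio, Cidec stays right of 2-fold throughout, and Pnpla2 with no recovery lies on either side of 0, from 0.41 to -0.30.

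Markers of other liver cells differed between the same libraries. Summed CPM of 7 macrophage markers was 215 and 937 in control and OGT-KO with no recovery and 79.8 and 731 at 7 days, with 7 of 7 higher in OGT-KO at each time. For 6 endothelial markers the sums were 216 and 424, then 149 and 310.1 (6 of 6 higher), for 7 stellate cell markers 172 and 818, then 119 and 771 (7 of 7), and for 5 cholangiocyte markers 53.7 and 1148, then 69.6 and 1457 (5 of 5). For 8 hepatocyte markers they were 78274 and 54951, then 85824 and 65981, with 1 and 2 of the 8 higher in OGT-KO. The log2 differences of these 8 ran from -1.90 (Serpina1c) to 0.14 (Tat) with no recovery and from -1.97 (Apoa1) to 0.46 (Tat) at 7 days. Their medians were -0.65 and -0.26. Alb, the highest of the 8 with 41362 to 54435 CPM over the 4 libraries, differed by -0.21 and -0.08 and weighs most in the sums. Macrophage and endothelial markers moved in the same direction as Cd36 between labels, and their part in its difference was not tested. Of 7 adipocyte markers only Fabp4, which macrophages and endothelial cells also express, was listed, at 8.19 and 25.6 CPM with no recovery and 5.66 and 18.4 CPM at 7 days. Adipoq, Lep, Plin1, Cidea, Cfd and Retn were not listed. Of 5 lymphocyte markers, 3 were listed, with sums of 1.65 and 4.81 CPM, then 1.10 and 2.88 (3 of 3 higher).

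Around the members, 56 related genes of fat storage were examined in 6 lists, of which 52 were listed and 48 compared. In OGT-KO against control, 9 were called higher and 11 lower with no recovery, and 9 higher and 9 lower at 7 days. Over all compared genes the shares were 24.4% higher and 5.69% lower with no recovery and 22.9% and 4.27% at 7 days, and the counts of each list below stand beside these shares. The split of the 48 genes depends on the scaling: 5 were higher and 18 lower with no recovery and 5 and 16 at 7 days under upper-quartile scaling, and 3 and 21, then 2 and 17, under median-ratio scaling. Without the 100 highest genes in the totals it was 7 and 12, then 9 and 12. Of the 48, 5 (Lpin3, Gpat3, Fabp4, Slc27a1 and Pparg) passed the filter through the OGT-KO libraries alone and 1 (Fitm1) through the control libraries alone, so that these 6 had to differ to be compared and their calls support nothing. The median log2 difference of the 48 was 0.12 and -0.06, below that of all compared genes at each time, and so was the median of each of the 6 lists.

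In droplet coat and biogenesis, 1 of 8 compared genes was called higher and 1 lower with no recovery, and 0 and 1 at 7 days. The gene lower at both times was Fitm1, a protein of the endoplasmic reticulum that acts in droplet formation, with 30.5 and 20.2 CPM in the control libraries and 0.700 and 0.266 CPM in the OGT-KO libraries. Its log2 differences were -4.21 and -4.07, with both OGT-KO libraries far below 10 CPM. Hsd17b13 had 329 and 946 CPM in control and OGT-KO with no recovery and 335 and 653 CPM at 7 days. It was called higher with no recovery alone (1.52, beside 0.96 at 7 days) and was named after its values were seen.

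In triglyceride synthesis, 3 of 11 compared genes were called higher and 1 lower at each time. Higher at both times were Lpin3 (2.67 and 2.38), a phosphatidate phosphatase, Gpat3 (2.30 and 1.52), a glycerol-3-phosphate acyltransferase, and Agpat1 (1.08 and 1.39), which acylates lysophosphatidate. Dgat2, which acts in the last step of triglyceride synthesis, had 351 and 181 CPM with no recovery and 369 and 162 CPM at 7 days. It was called lower at 7 days alone (-1.18). Dgat1 went the other way, with 22.9 and 39.7 CPM with no recovery and 23.0 and 37.5 CPM at 7 days. Its log2 differences of 0.77 and 0.68 were not called. Gpat4 was the gene called lower with no recovery (-1.24). Dgat1, Dgat2 and Gpat4 were named after their values were seen.

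In lipolysis and droplet lipases, 1 of 7 compared genes was called higher and 2 lower with no recovery, and 2 and 2 at 7 days. Lpl, lipoprotein lipase, which frees fatty acids from circulating lipoproteins and is low in the healthy adult liver, had 42.9 and 252 CPM with no recovery and 29.9 and 322 CPM at 7 days (log2 differences of 2.53 and 3.39). Lower at both times were Mgll, monoacylglycerol lipase (-2.16 and -1.49), and Aadac, arylacetamide deacetylase (-1.62 and -1.02). Lipa had 159 and 274 CPM in control and OGT-KO with no recovery and 134 and 332 CPM at 7 days. It was called higher at 7 days alone (1.30, beside 0.79 with no recovery) and was named after its values were seen.

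In fatty acid uptake, binding and activation, 2 of 12 compared genes were called higher and 4 lower at each time. Fabp1, the fatty acid binding protein of hepatocytes, had 3629 and 323 CPM with no recovery and 3994 and 949 CPM at 7 days, log2 differences of -3.48 and -2.07. Acsl1, which activates long-chain fatty acids, had log2 differences of -2.94 and -1.66, and Slc27a5, a CoA ligase of bile acids and fatty acids, -2.08 and -1.91. Fabp4 (1.54 and 1.55) and Slc27a1, a fatty acid transporter (1.44 and 1.44), were the pair called higher. In the export list 1 of 3 genes was called higher at each time, Tm6sf2, which acts in the lipidation of lipoproteins (1.03 and 1.47). Among 7 compared regulators, 1 was called higher and 3 lower with no recovery, and 1 and 1 at 7 days: Ppard, a fatty acid receptor, was higher (1.27 and 1.28) and Mlxipl, the carbohydrate response factor ChREBP, was lower (-1.57 and -1.50). Ppara and Srebf1 were called lower with no recovery alone (-1.31 and -1.06, beside -0.92 and -0.35 at 7 days). Pparg, a regulator of fat storage in adipocytes, had 8.84 and 17.4 CPM with no recovery and 7.86 and 13.8 CPM at 7 days, and was not called. Ppara, Srebf1 and Pparg were named after their values were seen.

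Of the 15 related genes named at both times, 0 changed direction under 3 other scalings and 9 stayed beyond 2-fold under all of them at both times. All 3 scalings shift the differences between labels to lower values, so genes called lower could not lose their call or direction. Of the 9, only Lpin3 and Lpl were called higher, and Lpin3 passed the filter through the OGT-KO libraries alone. The 6 that did not stay beyond 2-fold were Gpat3, Agpat1, Fabp4, Slc27a1, Tm6sf2 and Ppard, all called higher at equal totals. With recovery, 1 related gene was called in the control libraries (Fabp5, a log2 difference of 1.33) and 2 in the OGT-KO libraries (Fabp1, 1.55, and Lpin1, -1.41).

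**Figure D4:**
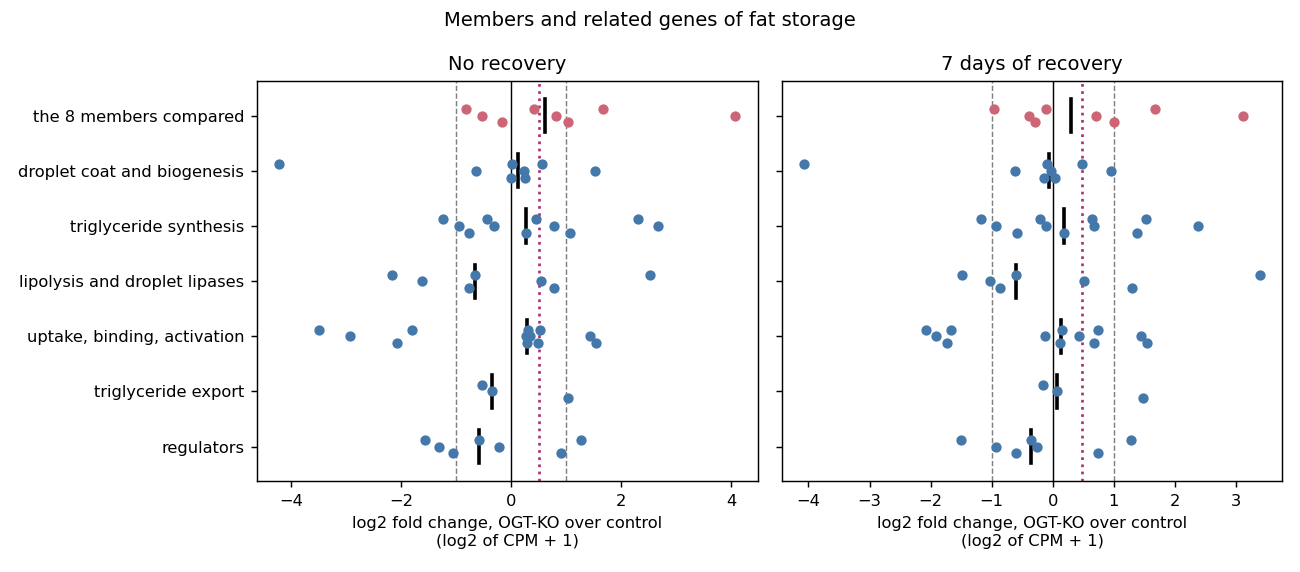
Log2 difference between OGT-KO and control of the 8 compared members (red) and of the 48 compared related genes by list (blue), with no recovery and at 7 days, at equal totals. Black bars mark the median of each list, the dotted line the median of all 8963 compared genes (0.51 and 0.48) and dashed lines 2-fold; the median of each related list lies left of the dotted line.

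The gene whose profile over the 4 libraries lay nearest to each compared member was found by Euclidean distance of centred log2(CPM + 1) values, as a description over 4 libraries. For Cidec it was Tnfrsf10b, at a distance of 0.195, with 0.612 and 25.9 CPM with no recovery and 0.350 and 13.2 CPM at 7 days, and 11 genes lay within 0.5. For Cd36 it was Rasip1 (0.0754, with 438 genes within 0.5), for G0s2 Cadm4 (0.0677, 518 genes) and for Plin5 Amacr (0.0279, 981 genes). The nearest genes to Plin2, Plin3, Cideb and Pnpla2 were Polb, Cnp, Bcas3 and Srsf5, and each of these 4 members had between 1866 and 3838 genes within 0.5. This count falls as the range of a gene over the libraries widens, so it does not rank how particular a profile is. Tnfrsf10b, like Cidec, passed the filter through the OGT-KO libraries alone.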

How the data were processed

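Livers were lysed in TRIzol and mRNA libraries were made with a Tecan kit, per the labels, and 1 pooled library of 3 mice was sequenced per condition on 2 lanes. The authors deposited 1 table of CPM for 13903 genes. The submitters' processing notes name STAR, DESeq2 and GRCm39 without their roles or versions, and the counter, its strand setting and the filter behind the table are not given in the sources used here. Its name points to DESeq2 normalization, but each of the 4 columns summed to 1000000, and 100.0% of its values were whole multiples of 1 read within 0.01. All sample columns were mapped by name, leaving 0 unmapped.

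Groups were taken from the sample titles. Differences of log2(CPM + 1) were computed for genes whose mean reached 10 CPM, and a gene was called at 2-fold. The design assumed no test, since 1 library per condition leaves no residual degrees of freedom. Intervals are exact Clopper-Pearson for levels and conditional binomial for ratios of 2 counts, and ratios of ratios carry Poisson errors on the log scale. The members and the related and marker lists were chosen with earlier results of these data known. All members were named. Of the related lists, genes called at both times were named, up to 3 per direction. Dgat1, Dgat2, Gpat4, Hsd17b13, Lipa, Ppara, Srebf1, Pparg and the genes called over recovery were added after their values were seen. For each compared member the 1 nearest gene was named. Alternative settings were pseudocounts of 0.1 and 10, all listed genes without a filter, a minimum mean of 50 CPM, upper-quartile scaling, median-ratio scaling, equal totals without the 100 highest genes, a 4-fold threshold and an exact binomial test. Exon lengths, overlaps and chromosomes are from GENCODE M21 (GRCm38), and promoters from RefSeq (GRCm38.p6), where 10 of 10 members matched by symbol. Motifs were searched from 250 bases before to 50 after each start. The recovery of whole reads and the 2-fold call were tested on reads simulated for OGT-KO against control with no recovery. The other steps were not tested in this way. Python 3.11.15, numpy 2.4.6, pandas 2.3.3 and scipy 1.17.1 were used.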

Additional observations from a re-analysis of the deposited data

Results flagged for a closer look

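For 2 of the members, a difference went in opposite directions in settings that could be set side by side, and the counting interval of each difference did not hold 0. The log2 difference of Pnpla2 between OGT-KO and control was 0.41 with no recovery and -0.11 at 7 days. These opposite directions are lost under upper-quartile scaling (-0.07 and -0.59) and median-ratio scaling (-0.30 and -0.79). From no recovery to 7 days, Pnpla2 differed by 0.42 in the control libraries and by -0.10 in the OGT-KO libraries. Cideb differed by 0.07 in the control libraries and by -0.15 in the OGT-KO libraries over the same interval, and the opposite directions over recovery of both genes were kept under the 5 alternative scalings and pseudocounts. Cideb stands with the limit that its reads cannot be told apart from those of Nop9. With 1 library per condition, none of these differences between settings was tested, and the intervals cover counting error alone.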

How the results depend on the processing

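No paired analysis was possible because each condition is 1 library and the labels carry no replicate numbers. Of 180 recomputed differences of single members, 66 moved by more than counting error, and 0 of those called changed direction. The exact binomial test on recovered reads (Benjamini-Hochberg threshold 0.05), which compares libraries and not conditions, removed no call. At this depth a 2-fold difference of log2(CPM + 1) rests on enough reads to pass a counting test. That outcome was therefore largely fixed in advance and supports no call. Between OGT-KO and control with no recovery, the 2695 genes called became 1781 with a pseudocount of 10, 5200 with no filter, 876 at a mean of at least 50 CPM and 855 at 4-fold. At 7 days, the 2433 became 4953 with no filter, 784 at a mean of at least 50 CPM and 875 at 4-fold. Over recovery in the controls, the 108 became 165 with a pseudocount of 0.1, 33 with a pseudocount of 10, 165 with no filter, 42 at a mean of at least 50 CPM and 5 at 4-fold. In OGT-KO, the 132 became 57 with a pseudocount of 10, 288 with no filter, 54 at a mean of at least 50 CPM and 8 at 4-fold. At 4-fold, 1 member instead of 3 was called at each time between labels, and in OGT-KO over recovery 0 instead of 1 member at 4-fold, with a pseudocount of 10, at a mean of at least 50 CPM and under median-ratio scaling. Of the related genes, the 20 called with no recovery became 11 at a mean of at least 50 CPM and 8 at 4-fold, and the 18 at 7 days became 10 and 4. Over recovery, the 1 called in the controls became 0 with a pseudocount of 10, at a mean of at least 50 CPM and at 4-fold, and the 2 in OGT-KO became 0 at 4-fold. A stricter mean tests fewer genes by construction. Of all genes called, 81.1% were higher in OGT-KO with no recovery and 84.3% at 7 days. These shares were 55.2% and 62.1% under upper-quartile scaling, 40.4% and 49.6% under median-ratio scaling, and 70.7% and 73.4% without the 100 highest genes.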
